A study of Mus musculus with 6 samples.

Results

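The histone genes were taken as every probe set of the array for which all gene symbols in its annotation began as a histone symbol (Hist1h to Hist4h, H1f, H2ac, H2bc, H3c, H4c, H2af, H3f3 or H2az). This gave 49 of 34760 probe sets, naming 50 genes, and a probe set naming several histone genes was kept as 1 unit. The members were chosen by gene symbol alone, with no threshold on a measured value, but the family was picked with the contrast of WT and CBS-KO arrays in view. Their WT against CBS-KO values are therefore a description, no p-value is given for a member, and nothing is read from their counts of calls. Of the 49 probe sets, 42 were replication-dependent (44 genes) and 7 were variant (6 genes). A mean signal over the 6 arrays above the 40th percentile of all probe sets, 6.99 on the log2(intensity + 16) scale, was passed by 35 replication-dependent and 5 variant probe sets. H1f3, H2bc22 and H4c8 had WT means below that level and passed it through the CBS-KO arrays.

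The series held Affymetrix microarrays of total RNA from CD4+ T cells, the helper class of T lymphocytes, of C57BL/6 mice aged 6 weeks. There were 3 WT arrays and 3 arrays labelled CBS-KO, from mice described as deficient in cystathionine beta-synthase (CBS), an enzyme that turns homocysteine into cystathionine and also makes hydrogen sulfide. The labels call the arrays biological replicates and do not say whether each came from a separate mouse or a pool, so the spread given here is that between these RNA samples. How the Cbs allele was made, in which cells it was altered, and how the CD4+ cells were isolated stand in none of the sources used here.

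Histones are the proteins around which DNA is wrapped: H2A, H2B, H3 and H4 form the nucleosome core and H1 binds the linker DNA. The replication-dependent genes lie in clusters, in the mouse mostly on chromosomes 13 and 3, and are transcribed in S phase, when new DNA must be packaged. Their mRNAs end in a stem-loop bound by SLBP instead of a poly(A) tail, whereas variant (replacement) histones such as H2A.Z and H3.3 are made from single genes with polyadenylated mRNAs throughout the cell cycle. The labels name a cRNA protocol but not the primer used for it, so how fully mRNAs without a poly(A) tail were copied is not known, and levels are compared only within a probe set.

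The arrays had median intensities between 149 and 171. The Cbs probe set gave 7.37, 7.48 and 7.19 on the WT arrays and 7.25, 7.63 and 7.35 on the CBS-KO arrays, a difference of 0.06 (SE 0.14), and whether it lies in the deleted part is not known, so it does not check the labels. Xist was low on CBS-KO 1 and CBS-KO 2 (6.02 and 6.18, against 12.23 to 12.68 on the other 4 arrays) and the Y-linked Eif2s3y was high there (9.41 and 9.19, against at most 4.90), so those arrays carried RNA of males and the others of females. All 11 measured CD4+ T cell markers were lower on every CBS-KO array than on every WT array, 5 of them called lower, among them Cd3d (difference −1.12, SE 0.18) and Cd28 (−0.86, SE 0.21). For comparison, 21.7% of all tested probe sets had all CBS-KO arrays below all WT arrays. With 1 probe set per gene, 4.45% of 12776 genes were called lower (limma). Cd4 itself had means of 13.34 (WT) and 12.77 (CBS-KO), a difference of −0.57 (SE 0.14, not called). In bulk RNA, fewer cells of a type and less RNA per cell cannot be told apart.

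Most replication-dependent histone probe sets, H4c6, H1f1 and H2bc3 foremost, had higher signals on the CBS-KO arrays than on the WT arrays, as had H2az1 and H1f10 among the variant ones. Of 35 tested replication-dependent probe sets, 21 were called higher on the CBS-KO arrays, none lower and 14 neither way, beside 5.09% called higher and 4.47% called lower over all 20856 tested probe sets (limma, Benjamini-Hochberg adjusted over all of them, threshold 0.05). None of the 5 tested variant probe sets was called (limma), although 3 of them were higher at an unadjusted threshold of 0.05. By the same unadjusted threshold 28 replication-dependent probe sets were higher and none of either class was lower, beside 13.6% higher and 17.3% lower over all tested probe sets. The median difference, CBS-KO minus WT, was 0.92 log2 units over the tested replication-dependent probe sets and 0.39 over the tested variant ones, 0.52 apart, against −0.05 over all tested probe sets. The difference between the classes was not tested. Without the filter the medians were 0.85 (42 probe sets) and 0.06 (7 probe sets). In 29 of 35 replication-dependent and 3 of 5 variant probe sets all 3 CBS-KO arrays lay above all 3 WT arrays, and in none did all lie below. Over all tested probe sets these shares were 15% and 21.7%. Within the female arrays alone, CBS-KO 3 against the 3 WT arrays, 28 replication-dependent and 2 variant probe sets were called higher beside 16.7% of all tested probe sets in that fit, with medians of 1.15 and 0.46. That fit has 1 CBS-KO array, which is assumed to vary as the WT arrays do, so it carries no measure of the spread among CBS-KO samples.

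**Figure D1:**
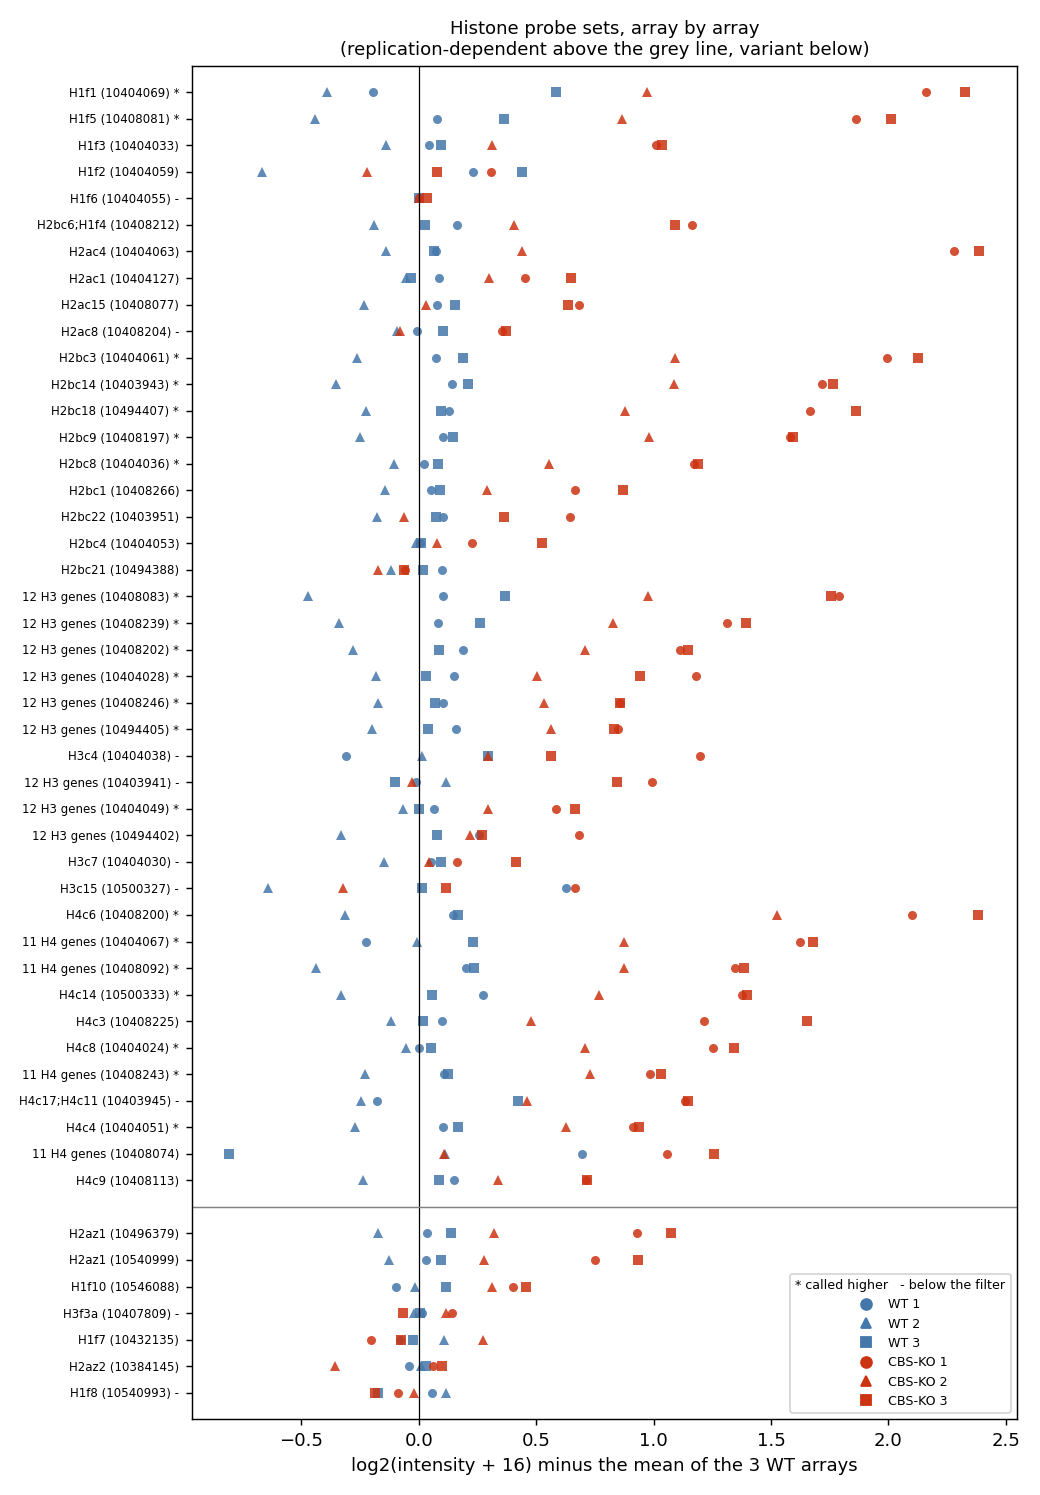
Each row is 1 histone probe set and each point 1 array, as log2(intensity + 16) minus the mean of the 3 WT arrays; circles, triangles and squares are replicates 1, 2 and 3, and the replication-dependent genes stand above the grey line. Most CBS-KO points lie to the right of the WT points above the line, with H4c6 farthest on average at 2.0, while H1f2, H2bc21, H1f7 and H2az2 lie around 0.

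The start of each gene was examined for 4 short motifs known from histone promoters, in RefSeq promoter windows of build GRCm38.p6 (250 bases before and 50 after the start, both strands). Of the 50 genes, 45 had a window (46 windows, since H2bc6 has a pair). The CCAAT box (CCAAT), bound by NF-Y, was found in 32 of 40 replication-dependent windows, in all windows of H1, H2A, H2B and H3 genes but in only 3 of 11 of H4 genes. It was in 4 of 6 variant windows and in 37.4% of all 32851 promoters of the table. The TATA box (TATAAA) was in 24 of 40 replication-dependent windows and in none of the 6 variant ones, against 13.6% of all promoters. At 15 to 45 bases before the start and on the gene's own strand, it was in 11 of the 40 windows, against 2.25% of all promoters. The octamer (ATTTGCAT), bound by OCT1, was found in 3 of 4 H2A and 6 of 9 H2B windows and in no other member, against 1.74% of all promoters. The AC box of H1 genes (AAACACA) was in 5 of 6 replication-dependent H1 windows, the exception being H1f1, in 2 of 4 H2A and 2 of 9 H2B windows and in 1 variant window (H3f3a), against 7.18% of all promoters. No hits of different motifs overlapped. A match is a run of letters and was not shown here to be bound.

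The 250 bases before the start are shown for 6 genes that stand for the range of the results: H4c6, H2bc3 and H1f1, which had the largest differences among probe sets called higher; H1f2, a linker histone gene of the same cluster with a difference near 0; and the variants H2az1 and H2az2. Sequences run 5′ to 3′ on the gene's strand and capitals mark the motifs on either strand.
H4c6, chr13:23551669-23551918, minus strand: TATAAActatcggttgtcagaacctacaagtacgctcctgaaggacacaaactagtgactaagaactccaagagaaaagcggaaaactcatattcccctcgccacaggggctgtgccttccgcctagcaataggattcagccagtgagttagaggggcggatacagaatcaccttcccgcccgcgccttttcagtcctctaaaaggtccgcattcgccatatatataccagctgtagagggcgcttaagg
H2bc3, chr13:23746484-23746733, plus strand: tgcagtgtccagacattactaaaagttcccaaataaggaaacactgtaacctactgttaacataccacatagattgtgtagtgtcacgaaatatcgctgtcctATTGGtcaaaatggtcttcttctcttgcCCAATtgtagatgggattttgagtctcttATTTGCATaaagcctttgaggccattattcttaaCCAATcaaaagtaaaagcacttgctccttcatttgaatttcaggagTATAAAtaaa
H1f1, chr13:23763418-23763667, plus strand: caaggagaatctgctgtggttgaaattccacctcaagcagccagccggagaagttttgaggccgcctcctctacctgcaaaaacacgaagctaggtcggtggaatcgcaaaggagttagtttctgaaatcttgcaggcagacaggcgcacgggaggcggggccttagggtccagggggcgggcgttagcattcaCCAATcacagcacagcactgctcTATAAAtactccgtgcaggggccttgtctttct
H1f2, chr13:23738557-23738806, plus strand: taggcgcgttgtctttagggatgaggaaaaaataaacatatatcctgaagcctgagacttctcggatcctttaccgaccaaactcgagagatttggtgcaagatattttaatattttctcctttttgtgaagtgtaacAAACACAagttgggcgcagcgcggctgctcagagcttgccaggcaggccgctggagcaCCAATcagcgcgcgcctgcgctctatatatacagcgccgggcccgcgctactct
H2az1, chr3:137864237-137864486, plus strand: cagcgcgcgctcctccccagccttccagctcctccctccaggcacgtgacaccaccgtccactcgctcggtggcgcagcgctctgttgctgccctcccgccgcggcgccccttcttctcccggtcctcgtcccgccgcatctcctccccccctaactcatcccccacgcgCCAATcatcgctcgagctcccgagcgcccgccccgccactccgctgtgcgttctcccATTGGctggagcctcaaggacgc
H2az2, chr11:6444444-6444693, minus strand: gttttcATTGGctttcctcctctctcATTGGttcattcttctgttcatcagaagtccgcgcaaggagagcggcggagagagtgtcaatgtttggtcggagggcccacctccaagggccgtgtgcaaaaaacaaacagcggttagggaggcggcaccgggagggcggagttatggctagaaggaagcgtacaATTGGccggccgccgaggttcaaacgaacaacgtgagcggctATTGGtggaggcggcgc
H2bc3 carried 3 CCAAT boxes in this stretch, 1 of them on the other strand, an octamer 90 bases and a TATA box 10 bases before the start. H4c6 held none of the CCAAT, octamer and AC motifs, and its single TATAAA lay 250 bases before the start. H1f1 and H1f2 both held a CCAAT box, 56 and 54 bases before the start. H1f1 also held a TATA box at 33 bases, and H1f2 held the AC box at 112 bases. Only the exact letters TATAAA were searched as a TATA box. H4c6 and H1f2 each hold the letters TATATATA near the 3′ end of the stretch shown, which were not counted, so a missing TATAAA does not show that a TATA element is absent. H2az1 and H2az2 held 2 and 4 CCAAT boxes in the stretch shown, and neither held a TATA box.

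The linker histone genes did not move alike. H1f1 (H1.1) rose from 9.70, 9.51 and 10.49 on the WT arrays to 12.06, 10.87 and 12.23 on the CBS-KO arrays, a difference of 1.82 (SE 0.41) or 3.53-fold. The groups did not overlap, and CBS-KO 2 was the lowest CBS-KO array by more than 1 unit. H1f5 (H1.5), the brightest linker probe set, rose from 10.52, 9.997 and 10.80 to 12.30, 11.31 and 12.45, a difference of 1.58 (SE 0.34) or 2.99-fold, again without overlap. H1f2 (H1.2), a subtype also known from resting cells, gave 9.91, 9.01 and 10.12 on the WT arrays and 9.99, 9.46 and 9.76 on the CBS-KO arrays. Its groups overlapped, and its difference of 0.05 had an SE of 0.30. H1f3 (H1.3) was 0.79 apart (SE 0.21) without overlap and was not called. The testis gene H1f6 gave 6.48 to 6.52 on all arrays, below the filter. A probe set naming H2bc6 and H1f4 together was 0.89 apart (SE 0.23) without overlap and was not called.

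Of the H2A genes, 4 probe sets were members, 3 were tested and none was called (limma). H2ac4 gave 8.53, 8.32 and 8.52 on the WT arrays and 10.74, 8.90 and 10.84 on the CBS-KO arrays, a difference of 1.70 (SE 0.50). All CBS-KO arrays lay above the WT arrays, but CBS-KO 2 lay nearer to the WT arrays than to the other CBS-KO arrays. H2ac15, the brightest H2A probe set, gave 11.56, 11.25 and 11.64 against 12.16, 11.51 and 12.12, a difference of 0.45 (SE 0.20). Here CBS-KO 2 lay within the WT range. H2ac1, known from testis, was 0.47 apart (SE 0.14), and H2ac8, below the filter, gave 5.06 to 5.53 on all arrays. Most other H2A genes are named on this array only together with further symbols.

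Of the 9 H2B probe sets, all were tested and 5 were called higher. H2bc3 rose from 10.12, 9.78 and 10.23 to 12.04, 11.14 and 12.17, a difference of 1.74 (SE 0.28) or 3.33-fold. H2bc14, the brightest H2B probe set, rose from 10.92, 10.42 and 10.98 to 12.49, 11.86 and 12.54 (1.52, SE 0.23). H2bc18, one of the members on chromosome 3, rose from 9.32, 8.97 and 9.29 to 10.86, 10.07 and 11.06 (1.47, SE 0.27). In all 3 of these the groups did not overlap and CBS-KO 2 was the lowest CBS-KO array. H2bc9 rose from 10.57, 10.22 and 10.61 to 12.05, 11.45 and 12.06 (1.39, SE 0.20), and H2bc8 by 0.97 (SE 0.20). The testis gene H2bc1 was 0.61 apart (SE 0.17) and not called. H2bc21, known from olfactory neurons, gave 7.52, 7.30 and 7.44 on the WT arrays and 7.36, 7.24 and 7.35 on the CBS-KO arrays. Its groups overlapped, and its difference of −0.10 (SE 0.10) was the only one below 0 among the 42 replication-dependent probe sets. H2bc4 gave 9.10, 9.09 and 9.11 on the WT arrays (SD 0.01) and 9.33, 9.18 and 9.62 on the CBS-KO arrays (0.28, SE 0.15, not called). H2bc22 gave 6.98, 6.70 and 6.95 against 7.52, 6.81 and 7.24 (0.31, SE 0.19), with overlap and not called.

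For H3 the array holds 9 probe sets that each name the same 12 genes, since the coding sequences of these genes are near copies, so which gene gave the signal is uncertain. Of these 9, 8 were tested and 7 were called higher, with differences of 0.52 to 1.51 log2 units. Probe sets of 1 annotation thus differed by about 1 unit in their change. The largest difference was that of probe set 10408083, which rose from 11.27, 10.69 and 11.53 to 12.96, 12.14 and 12.92 (1.51, SE 0.29). The brightest, probe set 10494405, rose from 13.45, 13.09 and 13.33 to 14.14, 13.86 and 14.13 (0.75, SE 0.12). The one not called, probe set 10494402, gave 8.89, 8.30 and 8.71 against 9.32, 8.85 and 8.90 (0.39, SE 0.21), and its groups overlapped at WT 1. The 3 probe sets that name a single H3 gene, H3c4, H3c7 and H3c15, lay below the filter, with groups that overlapped, as did the ninth probe set naming 12 genes.

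The largest difference of the family was that of an H4 gene. H4c6 rose from 10.08, 9.62 and 10.10 on the WT arrays to 12.03, 11.46 and 12.32 on the CBS-KO arrays, a difference of 2.0 (SE 0.24) or 4.01-fold. The lowest CBS-KO array lay more than 1 unit above the highest WT array. H4c4, the brightest H4 probe set, rose from 13.19, 12.82 and 13.26 to 14.00, 13.71 and 14.03 (0.83, SE 0.14). H4c14, on chromosome 3, rose by 1.18 (SE 0.22) and H4c8 by 1.10 (SE 0.17), while H4c3 was 1.12 apart with a larger SE of 0.29 and was not called. H4c9 was 0.59 apart (SE 0.16), without overlap and not called. A group of 4 probe sets named the same 11 H4 genes, and 3 of them were called higher, with differences of 0.92 to 1.39. The largest of these, probe set 10404067, rose from 10.59, 10.81 and 11.04 to 12.44, 11.69 and 12.49. The remaining one, probe set 10408074, given here after its values were seen, gave 9.29, 8.71 and 7.79 against 9.66, 8.71 and 9.85. Its difference was 0.81 (SE 0.45), with overlap and not called, and it had the widest spread among WT arrays of any tested member (SD 0.76). A probe set naming H4c17 and H4c11 lay below the filter, at 6.03 to 6.70 on the WT arrays and 6.74 to 7.42 on the CBS-KO arrays, without overlap.

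**Figure D2:**
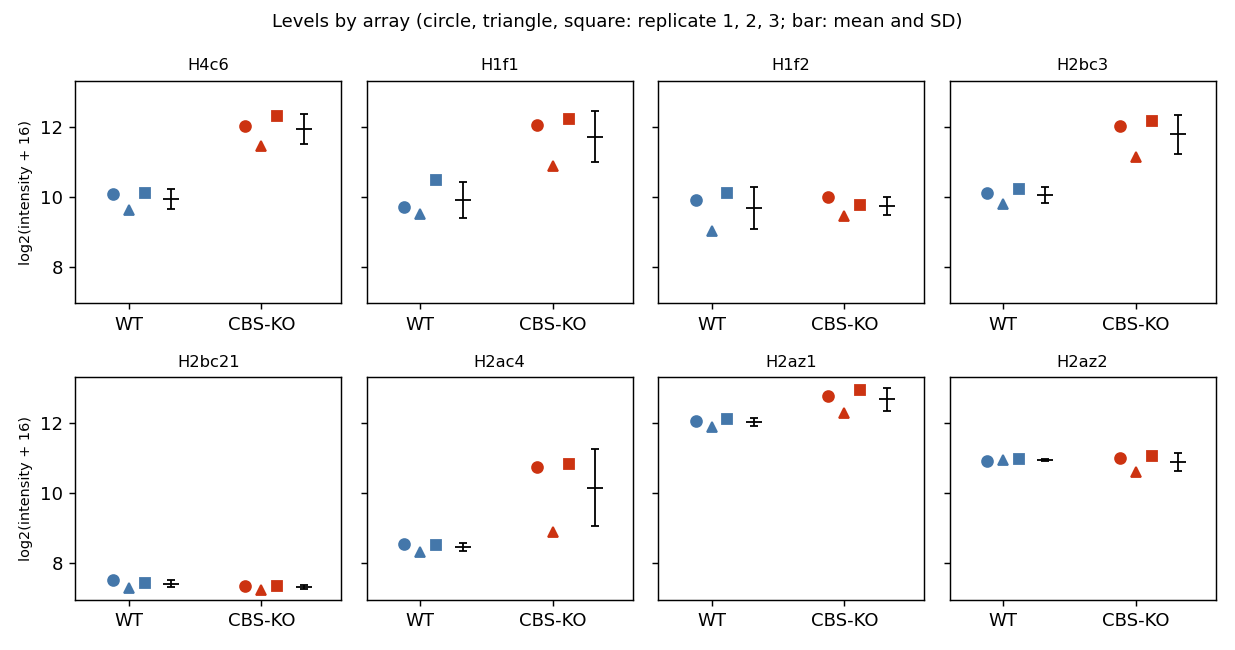
Points are log2(intensity + 16) on single arrays (circle, triangle and square for replicates 1, 2 and 3) and bars the mean and SD of 3 arrays, for 8 histone genes; for H2az1 the brighter of its probe sets is drawn. H4c6, H1f1 and H2bc3 have groups that do not overlap, H2ac4 is split by CBS-KO 2 at 8.90, and H1f2, H2bc21 and H2az2 overlap.

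Of the 7 variant probe sets, 5 were tested, with differences from −0.07 to 0.78, and none was called (limma). H2az1, which encodes H2A.Z.1, was measured by a pair of probe sets. The brighter gave 12.06, 11.90 and 12.12 on the WT arrays and 12.78, 12.30 and 12.96 on the CBS-KO arrays (0.65, SE 0.17). The dimmer gave 11.61, 11.40 and 11.71 against 12.50, 11.89 and 12.64 (0.78, SE 0.20). The groups did not overlap in either, and neither was called. H2az2, which encodes the closely related H2A.Z.2, gave 10.91, 10.96 and 10.98 against 11.01, 10.59 and 11.05 (−0.07, SE 0.14), with CBS-KO 2 below all WT arrays and the others above them. H1f10, a linker variant outside the clusters, gave 7.67, 7.76 and 7.89 against 8.18, 8.08 and 8.23 (0.39, SE 0.11), without overlap and not called. H1f7, known from spermatids, gave 7.52, 7.71 and 7.58 against 7.40, 7.88 and 7.53, so that the WT arrays lay inside the CBS-KO range. The oocyte gene H1f8 and the only probe set naming H3f3a alone lay below the filter, at 5.75 to 6.17 on all arrays.

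The members shared an order of arrays. CBS-KO 2 was the lowest CBS-KO array in all 35 tested replication-dependent and 4 of 5 tested variant probe sets, against 40.2% of all tested probe sets. WT 2 was the lowest WT array in 33 of 35 and 2 of 5, against 34.9%. Relative to the WT mean, the median of the 35 replication-dependent probe sets was 0.10, −0.22 and 0.09 on the WT arrays and 1.16, 0.55 and 1.15 on the CBS-KO arrays. For the 5 variant probe sets the CBS-KO medians were 0.40, 0.28 and 0.46. Probe sets of 1 array share its RNA, so these counts do not add replicates. Median differences by family were 1.18 for H1 alone (4 tested, 2 called), 0.47 for H2A (3 tested, none called by limma), 0.97 for H2B (9 tested, 5 called), 0.81 for H3 (8 tested, 7 called) and 1.11 for H4 (10 tested, 7 called). Probe sets naming 1 gene had a median of 1.04 (22 tested, 11 called) and those naming several 0.89 (13 tested, 10 called).

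Genes of 4 related lists were taken by their brightest tested probe set naming 1 gene, for which 6.62% of 12776 genes were called higher and 4.45% lower. Of 40 measured DNA replication genes, 12 were called higher and none lower, with a median difference of 1.23. Of 21 mitosis genes, 4 were called higher and none lower, with a median of 1.53. These included Rrm2, a ribonucleotide reductase subunit (1.96, SE 0.37), the S-phase cyclin Ccne2 (2.08, SE 0.44) and the proliferation marker Mki67 (1.69, SE 0.29), which are named after their values were seen. Their mean over the list, relative to the WT mean, was 1.40, 0.43 and 1.80 on CBS-KO 1, 2 and 3 for DNA replication and 1.73, 0.50 and 2.15 for mitosis. As with the histone genes, CBS-KO 2 had the lowest of the 3 values in both lists. At the unadjusted threshold used for the histone genes, 34 DNA replication and 20 mitosis genes were higher and none lower (limma). Over all genes 17.1% were higher and 16.3% lower. All CBS-KO arrays lay above all WT arrays in 33 DNA replication and 17 mitosis genes, and in none did all lie below. Among all tested probe sets, all lay above in 15% and all below in 21.7%. Of the 35 tested replication-dependent histone probe sets, 28 were higher at the unadjusted threshold, and in 29 all CBS-KO arrays lay above all WT arrays. The mitosis gene Ttk had a WT mean of 6.92, below the filter level. Ttk passed the filter through the CBS-KO arrays and is included in both mitosis counts.

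Genes that make and process histone mRNA had a list median of 0.11. None of 18 was called either way (limma), and 2 were higher and none lower at an unadjusted threshold of 0.05, which 17.1% of all genes passed as higher and 16.3% as lower. CBS-KO 2 was the lowest CBS-KO array in 16 of the 18, and the list means were 0.18, −0.14 and 0.35 on CBS-KO 1, 2 and 3. Slbp, the stem-loop binding protein, gave 9.64, 9.83 and 10.11 on the WT arrays and 10.89, 9.90 and 11.22 on the CBS-KO arrays (0.81, SE 0.34). It overlapped through CBS-KO 2. Npat, the S-phase activator of histone transcription, was 0.22 apart (SE 0.25) and its partner Casp8ap2 −0.13 apart (SE 0.25), both with overlap. These 3 genes are named after their values were seen.

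Of 26 histone chaperones and exchange factors, 1 was called higher and 1 lower (limma), with a median difference of 0.22. Over all genes 6.62% were called higher and 4.45% lower, so these calls do not set the list apart. At the unadjusted threshold 6 were higher and 2 lower, beside 17.1% and 16.3% of all genes. All CBS-KO arrays lay above all WT arrays in 7 genes of the list and below them in 7. Among all tested probe sets, all lay above in 15% and all below in 21.7%. Ipo4, an importin that carries histones H3 and H4 into the nucleus, rose from 9.97, 9.96 and 9.98 to 10.48, 10.41 and 10.68 (0.55, SE 0.11). Atrx, a remodeller that deposits H3.3 with Daxx, fell from 11.09, 11.04 and 11.02 to 10.71, 10.57 and 10.50 (−0.45, SE 0.10). Ipo4 and Atrx were the called genes, and neither gene's groups overlapped. Chaf1a and Chaf1b, subunits of the replication-coupled assembly factor CAF-1, were 1.63 (SE 0.42) and 1.15 (SE 0.37) apart, and Asf1b, which hands H3 and H4 to it, 1.09 (SE 0.29). None of these 3 was called, in none did the groups overlap, and all 3 are named after their values were seen.

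Among markers of other blood cells, those of red cell precursors, neutrophils and monocytes or macrophages were higher on the CBS-KO arrays. Beside the counts below, 6.62% of all genes were called higher and 4.45% lower (limma). At the unadjusted threshold 17.1% of all genes were higher and 16.3% lower. All 11 measured red cell precursor markers were called higher, with a median of 3.0 and summed levels of 11.25 to 12.08 (log2) on the WT arrays and 14.16 to 15.50 on the CBS-KO arrays. Of 15 neutrophil markers 13 were called higher (median 3.35, sums of 10.83 to 11.83 and 14.85 to 15.31), and of 12 monocyte or macrophage markers 10 (median 2.08, sums of 12.05 to 12.83 and 14.22 to 14.70). The lowest value of a marker counted was that of the neutrophil gene Mmp8 on WT 2, 5.72, below the filter level. The offset of 16 keeps every value above 0, so these values do not show that a marker was detected on an array. Epb42 (red cell precursor), Cd14 (monocyte) and the neutrophil genes S100a8, S100a9, Mmp8, Retnlg and Ly6g had WT means below the filter level. These genes passed it through the CBS-KO arrays and are counted among the calls. The red cell precursor list had its lowest CBS-KO mean on CBS-KO 2 (3.48, 2.42 and 3.83), as the histone genes did. The neutrophil means were 3.45, 3.14 and 3.12, and the monocyte means were highest on CBS-KO 2 (1.83, 2.38 and 1.87). B cell markers (none of 9 called by limma, none past an unadjusted threshold of 0.05) had sums of 12.88 to 13.44 and 12.12 to 14.05, with the highest on CBS-KO 2. Of 9 CD8 T or NK cell markers 2 were called higher and 1 lower, with sums of 12.14 to 12.39 and 12.25 to 13.08. The CD4+ T cell sums were 15.98 to 16.11 on the WT arrays and 15.05 to 15.71 on the CBS-KO arrays. The part of these cell types and of cycling cells in the histone differences was not tested.

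**Figure D3:**
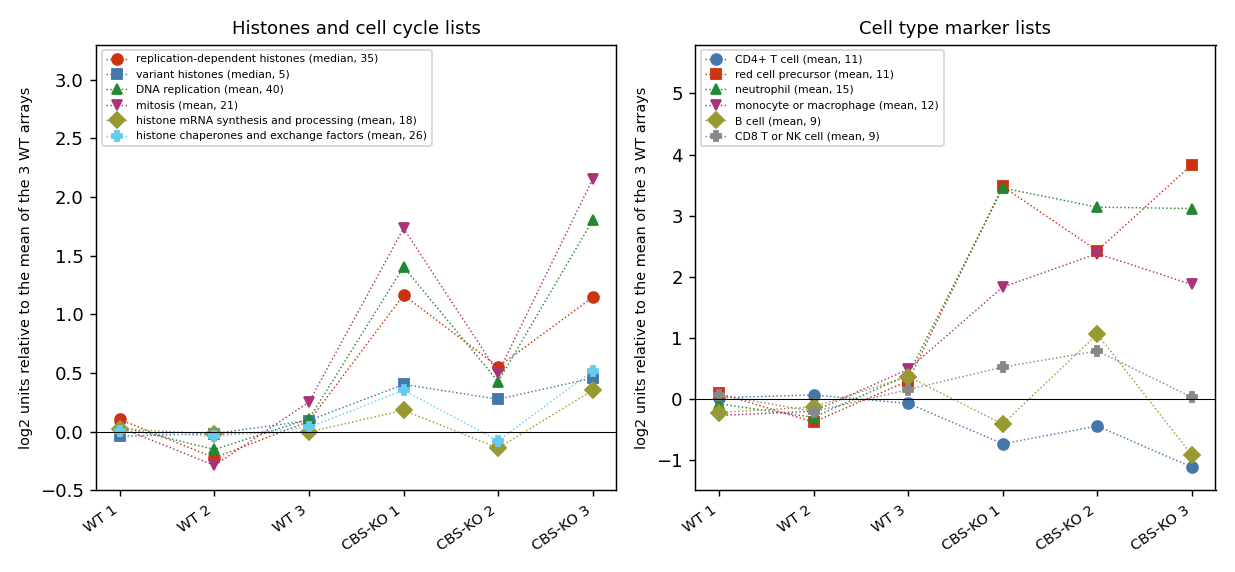
Each point is the median (histones) or mean (other lists) of a list on 1 array, in log2 units relative to the mean of the 3 WT arrays, with the number of probe sets or genes in the legend; left, histones and cell cycle lists, right, cell type markers; dotted lines only join points of a list. Replication-dependent histones (1.16, 0.55 and 1.15 on CBS-KO 1, 2 and 3) dip at CBS-KO 2 with the DNA replication, mitosis and red cell precursor lists, while monocyte, B cell and CD8 T or NK cell lists peak there.

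The count of calls changed widely when single arrays were left out, while the median difference changed less. With WT 1, WT 2 or CBS-KO 1 left out, none of the 35 replication-dependent probe sets was called higher (limma), and with WT 3 or CBS-KO 3 left out 6 and 13 were. Without CBS-KO 2, 30 were called, and 3 variant probe sets with them. Over all tested probe sets the share called higher moved likewise, from 0.259% to 16.3%. The median difference of the replication-dependent probe sets stayed between 0.85 and 1.13 over these 6 fits. No member was called in all 6 of them. H4c6, H4c4, H2bc14, H2bc9 and probe sets 10408239 and 10408243 were called in 3. The differences of H1f2, H1f7 and H2az2 changed sign among these fits, that of H1f2 from −0.28 to 0.27. Other members kept their sign but moved in size, H2ac4 from 1.36 to 2.33 and probe set 10408074 from 0.40 to 1.16.

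Signal strength was set beside the difference for the 35 tested replication-dependent probe sets. Called higher were 2 of 8 with a WT mean under 8 and 3 of 10 between 8 and 10. Between 10 and 12 the count was 8 of 9, and above 12 it was 8 of 8. The share called among all tested probe sets was not taken in these ranges, so nothing is read from these counts. The median differences in these ranges were 0.70, 0.96, 1.39 and 0.87, with no steady rise or fall. Across probe sets, which share arrays and are not independent, the correlation of WT mean and difference was 0.18 by Pearson and by Spearman (n = 35). The highest value of any probe set on an array was 14.32 to 14.44, so the brightest members, at up to 14.14, lay close to the top of the scale, and whether their differences are compressed there was not tested.

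**Figure D4:**
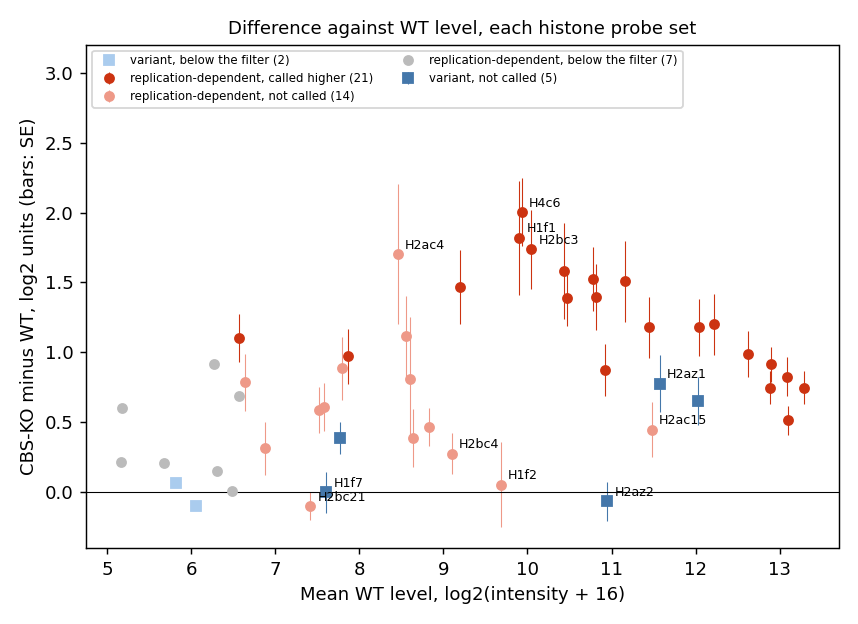
Each point is 1 histone probe set, with its mean WT level, log2(intensity + 16), on the horizontal axis, its CBS-KO minus WT difference in log2 units on the vertical axis, and bars of 1 SE for tested probe sets. The 8 replication-dependent probe sets above 12 have a median of 0.87, and the largest differences (H4c6, H1f1 and H2bc3) lie near a WT level of 10.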

How the data were processed

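Gene expression was measured in 6 samples on Affymetrix arrays, from biotinylated cRNA made from 6 ug of total RNA, per the labels' protocols. The authors deposited a table of 1 linear intensity per probe set and array; the background correction, summary and normalization that made it stand in none of the sources used here. Values were taken as log2(intensity + 16), and differences are on that scale, which understates changes of dim probe sets. Probe sets with a mean above the 40th percentile were fitted with limma 3.58.1 (R 4.3.3; lmFit, eBayes with a trend, two-sided) on all 6 arrays without covariates, and p-values were adjusted by Benjamini-Hochberg over all 20856 tested probe sets. The script was tested on simulated data. Figures were drawn with matplotlib 3.10.9 (Python 3.11.15). Gene symbols came from the platform annotation, and gene class from RefSeq synonyms: cluster genes, H1f1 to H1f6 included, as replication-dependent, H1f7, H1f8, H1f10, H2az and H3f3 as variant.

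The members and all lists were chosen with earlier results of these data known. Given on every array were the 10 largest and 5 smallest differences among tested replication-dependent probe sets, all tested variant ones, the brightest of each histone type, and called genes of the histone mRNA and chaperone lists; other genes are summarised or stated to be chosen after their values were seen. Alternatives changed the normalization, filter, offset, variance model, sex term, replicate block, members and arrays. The number of arrays, 3 in each group, limits the precision.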

Additional observations from a re-analysis of the deposited data

How the results depend on the processing

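The direction of both class medians stayed the same under every alternative run. The median of the replication-dependent probe sets lay between 0.85 and 1.15 over 22 alternatives, and its distance from the variant median between 0.34 and 0.79 over 21. The variant median of 0.39 rests on 5 probe sets: it was 0.065 with no filter and with all members unfiltered, 0.65 with the filter at the 60th percentile, and 0.18 with probe sets naming a further symbol, an alternative chosen after seeing the data. The replication-dependent count of 21 ranged from 0 to 30 when 1 array was left out and was 11 (of 22) among probe sets naming 1 gene. The variant count of 0 ranged from 0 to 3 when 1 array was left out. It was 1 after quantile normalization and with further symbols, and 2 with sex as a term (11.1% of all tested probe sets called higher). No WT array was male, so with sex as a term the group difference rests on CBS-KO 3 against the WT arrays. The medians of that fit, 1.15 for replication-dependent and 0.46 for variant probe sets, were those of the female arrays alone. No member was called lower in any of 20 alternatives. The labels do not say whether the replicate numbers pair the arrays. Deviations of same-numbered arrays correlated at 0.06, 0.16 and 0.11. Differently numbered arrays were not set beside them, so these values cannot settle the pairing. With the replicate number as a block, 25 replication-dependent and 2 variant probe sets were called higher, beside 5.61% of all tested probe sets. The causes of these shifts were not tested, beyond the smaller number of arrays or probe sets in each.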

Other observations

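Probe sets that name a histone gene together with a further symbol, which the symbol rule leaves out, were measured too, and many of their genes also have a member probe set. Of 13 such probe sets all were tested and 8 were called higher (limma, adjusted over all tested probe sets). Over all tested probe sets 5.09% were called higher. The calls were all those naming mostly H2B or H2A genes and the H3f3a probe set with the largest difference. The other probe sets naming H3f3a and those naming H3f3b were not called. A group of 6 naming 14 or 15 genes, nearly all H2B, rose by 0.61 to 1.54, and the largest of these went from 11.81, 11.15 and 11.68 on the WT arrays to 13.38, 12.55 and 13.34 on the CBS-KO arrays. A probe set naming 19 genes, nearly all H2A, with H2ax and H3c4, rose from 7.996, 7.49 and 8.22 to 10.43, 8.86 and 10.44 (2.01, SE 0.45), without overlap. H3.3, the replacement H3, is encoded by H3f3a and H3f3b. Of these probe sets, 4 named H3f3a together with Gm12657, and their differences were 0.51 (called higher), 0.34, 0.18 and 0.05. Those naming H3f3b together with Gm6485 differed by 0.07 and 0.03.

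Other histone genes fell outside the symbol rule and are named after their values were seen. H2ax, the DNA damage histone, gave 9.45, 9.22 and 9.76 on the WT arrays and 10.56, 9.84 and 10.75 on the CBS-KO arrays (0.91, SE 0.26), without overlap and not called. Cenpa, the centromeric H3, was 0.84 apart (SE 0.33), not called and with overlap through CBS-KO 2. Macroh2a1 was −0.19 apart (SE 0.14) with overlap, and H2aw 0.53 apart (SE 0.15) without overlap, both not called.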
